A study of Drosophila melanogaster with 6 samples.

Results

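The head libraries numbered replicate 3 stood apart from those numbered 1 and 2 in both diet groups, and the genes that carried this difference are described here. The contrast set ND 3 and HSD-F1 3, 2 libraries of the 6 in the series, against ND 1, ND 2, HSD-F1 1 and HSD-F1 2, with the mothers' diet as a further term of the model. The split was chosen by measured expression, namely by earlier results of these same libraries. The values of this contrast are therefore given as a description of the libraries, with no p-value, and a gene is named "called" only to say that its adjusted p-value was under 0.05 in the fit that ordered the genes. All libraries were made from polyadenylated RNA of heads of 5-day-old female Drosophila melanogaster with the labelled genotype W+VDRC, and each replicate pooled 15 heads. ND flies had mothers kept on normal food with 10% sucrose, and HSD-F1 flies had mothers kept on a high-sugar diet with 20% sucrose, from egg to adult in each case. The sample titles name ancestors rather than mothers. In the study's design, flies raised on the high-sugar diet were mated to give HSD-F1, so the term for the mothers' diet is not specific to mothers. HSD-F1 flies themselves were raised on normal diet, and flies were kept in a daily cycle of 12 hours of light and 12 hours of darkness. The hour of collection is not given for any library, and the labels do not say that a replicate number marks a shared vial, day or batch. The column headers of ND 2 and ND 3 are written with hyphens and those of the other 4 libraries without, a split that does not follow the replicate number.

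Several groups of transcripts recur below. The circadian clock of the fly is a feedback loop in which the transcription factors Clock (Clk) and Cycle (cyc) switch on period (per), timeless (tim) and vrille (vri), and the proteins Per and Tim later switch their activators off. In flies kept in light and dark, per, tim and vri transcripts of the head are known to peak around the early night, whereas Clk and cryptochrome (cry) transcripts peak at the opposite phase. Follicle cells of the ovary make the eggshell, with an inner vitelline membrane and an outer chorion, and the chorion genes lie in clusters that these cells amplify. Heads contain neurons, glia, photoreceptors, muscle, cuticle and a fat body, but no ovary or midgut.

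The libraries held between 20266352 and 26190694 counts, and the 10 most abundant genes took between 15.7% and 18.7% of a library. Each table listed 17545 genes, and the 12048 genes with at least 10 counts in total were tested. Head transcripts were abundant in every library. The 21 listed phototransduction genes summed to between 43056 and 56001 CPM (counts relative to library totals scaled by trimmed mean of M-values), and each of the 19 listed neuronal genes had counts in all 6 libraries. The 23 listed chorion and vitelline membrane genes, which mark follicle cells, summed to 17.1, 15.9 and 128 CPM in ND 1, 2 and 3 and to 17.4, 18.0 and 36.9 CPM in HSD-F1 1, 2 and 3, so that the highest sum of each diet was that of replicate 3. The part of ovary RNA in the results below was not tested, and in these bulk samples fewer cells of a type and less RNA per cell cannot be told apart.

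The first principal component of log2 CPM over the 12048 genes held 33.3% of the variance. On this axis ND 3 lay at 30.8 and HSD-F1 3 at 29.6, and the other libraries lay at -26.2 and -12.6 for ND 1 and 2 and at -19.9 and -1.76 for HSD-F1 1 and 2. The largest share of the variance thus ran between the replicate 3 libraries and the rest, and the diets lay apart on the second component, with 20.9% of the variance. The HSD-F1 libraries differed more among themselves on that component than the ND libraries did, from -31.9 to -4.95 against 12.1 to 19.8. On the third component, with 18.0% of the variance, ND 3 lay at 26.9 and HSD-F1 3 at -24.1. The replicate 3 libraries were thus the opposite extremes of that axis.

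**Figure D1:**
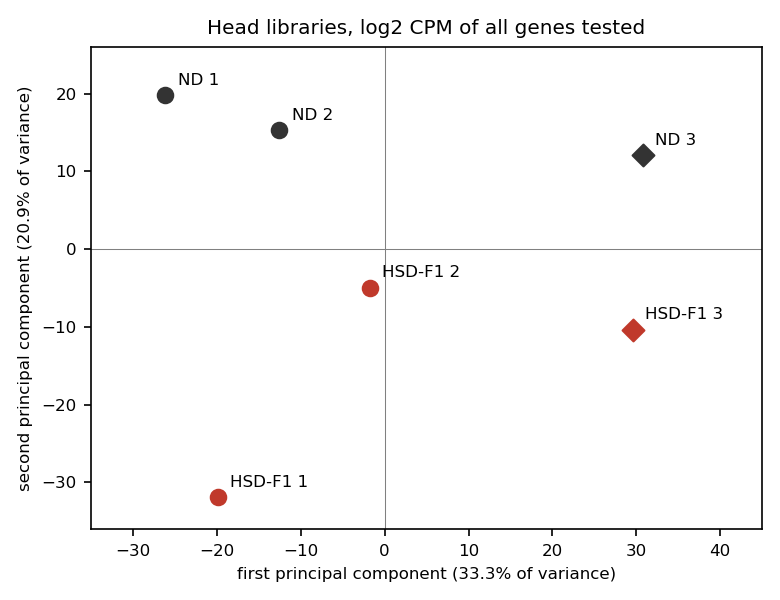
Principal components of log2 CPM over the 12048 genes tested, with the percentage of the variance on each axis. ND libraries are dark and HSD-F1 libraries red, and diamonds mark replicate 3: ND 3 (30.8) and HSD-F1 3 (29.6) lie to the right of the 4 other libraries, which span -26.2 to -1.76 on the first component.

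Of the 12048 genes, 29 were called (0.241%), 17 of them higher in replicate 3 (0.141%) and 12 lower (0.0996%). These shares belong to the contrast that the libraries were chosen on, and nothing is read from them. All 29 differed more than 2-fold, and in all 29 the replicate 3 library lay beyond both other libraries of its diet in both diets. Over all genes, replicate 3 was the highest library of both diets for 12.6% and the lowest of both for 11.4%. With the study's own thresholds, an unadjusted p-value under 0.05 and at least a 1.5-fold change, 201 genes were higher (1.67%) and 186 lower (1.54%). Of these 387 genes, 186 had a mean under 1 CPM. The 17 genes called higher included 5 with fewer than 10 counts over replicates 1 and 2, which passed the filter on low counts only through replicate 3, and the 12 called lower included 6 with fewer than 10 counts in replicate 3. The number of called genes depended on single libraries. It was 1 without ND 3, 19 without ND 1 and 47 without ND 2, and 21, 32 and 39 without HSD-F1 2, 3 and 1, respectively. The only gene still called without ND 3 was Achl.

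Just inside the threshold stood Cpr72Eb and CycB, with log2 fold changes of -2.90 and 2.58, and vanin-like, whose counts are given further on. Just outside it stood tim and yellow-g2, with log2 fold changes of 1.35 and 2.61, and lectin-37Da, with 36, 35 and 2 counts in ND and 54, 28 and 0 in HSD-F1. Of the 17 genes called higher, 7 lie on chromosome X, which holds 16.3% of all genes tested. The neighbours Cp36, Cp38 and Cp7Fc are among the 7. Of the 201 genes higher at the study's thresholds, 16.9% lie on X. The median exonic length was 2577 bases for the 17 higher genes, 1430 bases for the 12 lower genes and 1864 bases over all genes tested. At the study's thresholds the order was reversed, with 1366 bases for higher and 1509 bases for lower genes.

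The 2 repressors of the clock were both higher in replicate 3. Transcripts of per (chromosome X of Release 6, 2685580 to 2692780, plus strand) reached 20.0, 22.5 and 66.6 CPM in ND 1, 2 and 3 and 18.7, 24.2 and 68.2 CPM in HSD-F1 1, 2 and 3. Each replicate 3 library thus held about the same per level, and the 4 other libraries lay in a narrow range far below it. The log2 fold change was 1.66 (standard error, SE, 0.13), a 3.15-fold difference, and it was 1.65 within ND and 1.67 within HSD-F1. Transcripts of tim (chromosome 2L, 3493986 to 3508119, minus strand) reached 151, 91.8 and 303 CPM in ND, and 128, 83.8 and 276 CPM across HSD-F1. The log2 fold change of tim was 1.35 (SE 0.21). Replicate 2 was the lowest library of both diets for tim, which was not so for per, and tim was not among the called genes.

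The repressor of the clock's other loop, vri (chromosome 2L, 5288944 to 5311223, plus strand), which represses Clk, was also higher. It reached 21.9, 28.6 and 104 CPM in ND, and 24.9, 27.7 and 77.0 CPM across HSD-F1, and its log2 fold change was 1.80 (SE 0.15). ND 3 held the most vri of all libraries, and the groups of libraries did not overlap. Pdp1, the activator of the same loop, had a log2 fold change of 0.23, with 844 and 1025 CPM in ND 3 and HSD-F1 3 against 697 to 927 CPM in the others. The repressor cwo had a log2 fold change of 0.42, and its ND 3 level of 87.8 CPM stood above 51.1 and 60.4 CPM in ND 1 and 2, whereas its HSD-F1 level of 65.4 CPM in replicate 3 was close to 60.2 and 55.5 CPM in replicates 1 and 2.

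The activator Clk ran the other way. It reached 56.7, 59.0 and 44.4 CPM in ND, and 61.9, 60.1 and 39.3 CPM across HSD-F1, a log2 fold change of -0.51 (SE 0.11). Both replicate 3 libraries were the lowest of their diet. The light receptor cry was the lowest in both replicate 3 libraries as well, at 216 and 200 CPM against 207 to 239 CPM, but with a log2 fold change of only -0.12 and overlapping ranges across diets. The partner of Clk, cyc, lay between 31.8 and 41.7 CPM with a log2 fold change of 0.13, and ND 3 lay between ND 1 and ND 2. Of the 8 core clock genes, 3 passed the study's thresholds upward, 0 downward and 2 were called, beside 1.67%, 1.54% and 0.241% of all genes tested. In the list of 8 clock kinases and turnover factors, such as dco, sgg and slmb, 0 passed the thresholds in either direction, and their log2 fold changes ran from -0.11 to 0.18 with a median of 0.02.

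**Figure D2:**
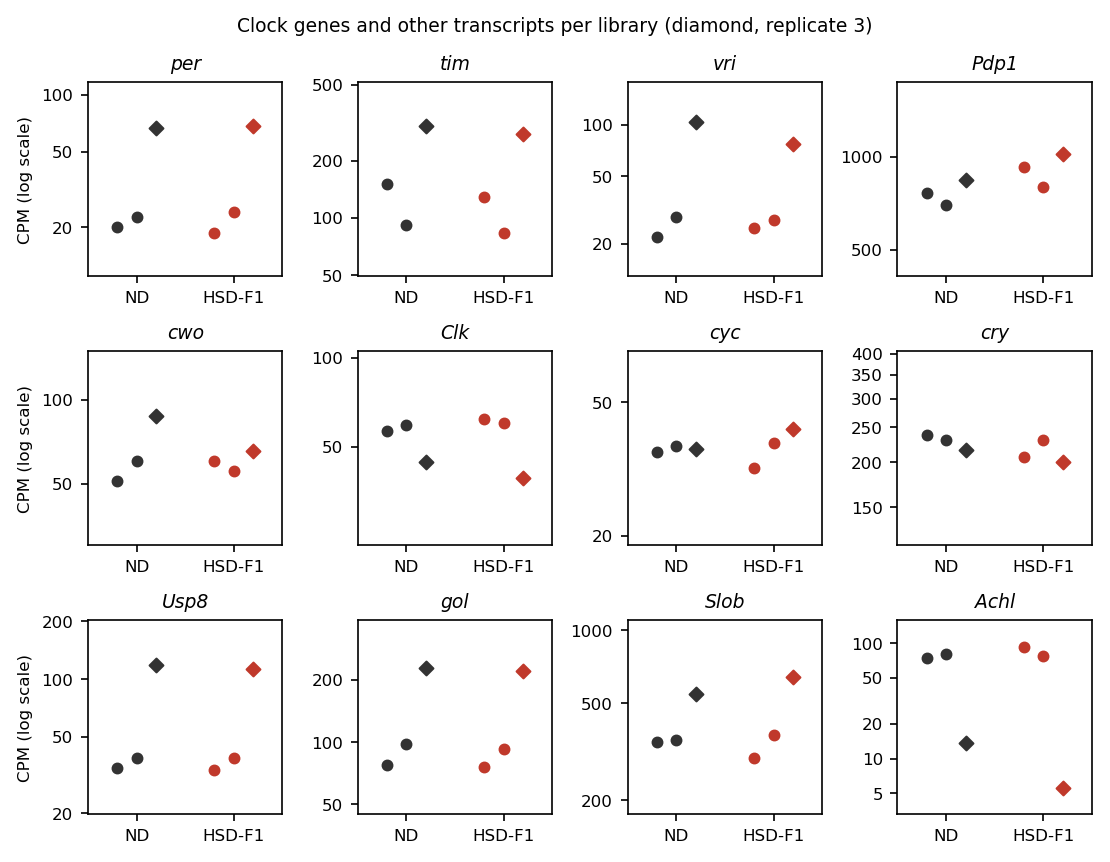
Scaled counts (CPM, log scale) of 8 core clock genes and of Usp8, gol, Slob and Achl in each library. ND libraries are dark and HSD-F1 libraries red, with replicates 1, 2 and 3 from left to right in each diet and diamonds for replicate 3. The diamonds lie above the circles of their diet for per (66.6 and 68.2 CPM), tim, vri, Pdp1, cwo, Usp8, gol and Slob. They lie below them for Clk, cry and Achl (13.6 and 5.58 CPM).

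Other transcripts known to cycle in fly heads were mixed in direction. Usp8 (chromosome 3R, 21134262 to 21138214, plus strand), which encodes a deubiquitinating enzyme, reached 34.6, 39.0 and 119 CPM in ND, and 33.5, 38.9 and 113 CPM across HSD-F1. Its log2 fold change of 1.66 (SE 0.11) was the same as that of per at this precision, and its libraries followed nearly the same pattern. Slob, which encodes a protein that binds the potassium channel Slowpoke, reached 347, 355 and 548 CPM in ND, and 297, 371 and 645 CPM across HSD-F1, a log2 fold change of 0.80 that passed the study's thresholds. takeout (to), a feeding-related carrier protein gene, was lower, at 158, 114 and 76.3 CPM in ND, and 78.4, 79.3 and 59.8 CPM across HSD-F1. Over the 11 daily output genes tested, 2 passed the thresholds upward and 2 downward, the latter to and Ugt35E2, with a median log2 fold change of -0.23. The shares over all genes tested were 1.67% upward and 1.54% downward.

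Outside these lists, and chosen after its values were seen, gol (chromosome 2R, 25072627 to 25084347, minus strand), a ubiquitin ligase gene, shared this pattern. It reached 77.4, 98.0 and 228 CPM in ND, and 76.0, 92.8 and 221 CPM across HSD-F1, with log2 fold changes of 1.38 within ND and 1.39 within HSD-F1. Achl (achilles, chromosome 2R, 14420324 to 14424764, plus strand), a rhythmically expressed neuronal gene whose loss is known to raise antimicrobial peptide transcripts in fly heads, was lower. It reached 74.7, 80.1 and 13.6 CPM in ND, and 92.4, 77.9 and 5.58 CPM across HSD-F1. The 4 libraries of replicates 1 and 2 lay close together, and both replicate 3 libraries lay far below them. The log2 fold change was -3.13 (SE 0.31), and it was -2.51 within ND and -3.93 within HSD-F1.

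Eggshell genes were among those with the largest positive differences. Cp36, Cp38 and Cp7Fc, which encode chorion proteins, lie side by side on chromosome X between 8477117 and 8483311. Cp36 had 1, 4 and 667 counts in ND 1, 2 and 3 and 4, 4 and 123 in HSD-F1 1, 2 and 3. Cp38 had 11, 6 and 546 counts in ND and 3, 8 and 102 in HSD-F1, and Cp7Fc had 16, 18 and 441 counts in ND and 21, 24 and 95 in HSD-F1. All 3 genes thus had at most 24 counts in 4 libraries, more in HSD-F1 3 and the most in ND 3. The log2 fold changes were 6.65 for Cp36, 5.29 for Cp38 and 3.45 for Cp7Fc, with standard errors of 0.48, 0.37 and 0.48. These genes overlap CG33223 on the opposite strand, which had 95 counts in all libraries together and a log2 fold change of 0.14. In the same cluster Cp7Fb had 122, 82 and 737 counts in ND and 73, 130 and 212 in HSD-F1, whereas Cp7Fa, with 82 to 116 counts in every library, had a log2 fold change of 0.09. In the chorion cluster on chromosome 3L, Cp18 had 16 to 33 counts in all libraries and a log2 fold change of 0.47, and Cp16, with 1 or 0 counts in replicates 1 and 2 and 5 and 2 in replicate 3, was not tested.

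The eggshell gene defective chorion (dec) had 6, 2 and 226 counts in ND and 2, 3 and 29 in HSD-F1, a log2 fold change of 5.02. The vitelline membrane gene Vm34Ca had 4, 3 and 120 counts in ND and 13, 8 and 32 in HSD-F1, a log2 fold change of 3.22, and yellow-g2, which takes part in eggshell formation, had 14, 8 and 67 in ND and 1, 7 and 28 in HSD-F1. Of the 23 listed chorion and vitelline membrane genes, 21 were tested, 1 of which passed the filter only through replicate 3. All 21 had positive log2 fold changes, with a median of 1.08 beside -0.002 over all genes tested. Of these, 11 passed the study's thresholds upward and 4 were called, and replicate 3 was the highest library of both diets for 12. Over all genes tested, the shares were 1.67% upward, 0.141% called higher and 12.6% highest in both diets.

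Some germline genes had more counts in ND 3 than in any other library. The summed level of the germline list did not set replicate 3 apart, with 414, 416 and 446 CPM for the ND libraries against 472, 394 and 349 CPM for HSD-F1. dhd, a thioredoxin gene of the female germline that was chosen after its values were seen, had 10, 10 and 252 counts in ND and 13, 17 and 41 in HSD-F1. nanos (nos), which patterns the embryo and maintains germ cells, had 2, 1 and 47 counts in ND and 1, 4 and 2 in HSD-F1, and osk, which assembles the germ plasm, had 1, 1 and 15 in ND and 1, 3 and 1 in HSD-F1. HSD-F1 3 thus held no more nanos or osk than HSD-F1 2. Over the 19 germline and maternal genes tested, 4 of which passed the filter only through replicate 3, the median log2 fold change was 1.02. It was 2.02 within ND and 0.002 within HSD-F1. Of the 19, 7 passed the thresholds upward, 0 downward and 0 were called, beside 1.67%, 1.54% and 0.241% of all genes tested. vas, a germline helicase gene that overlaps vig on the opposite strand, had 4, 4 and 29 counts in ND and 3, 8 and 10 in HSD-F1.

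Other genes called higher shared this order of libraries. CycB, a mitotic cyclin gene, had 32, 22 and 269 counts in ND and 18, 15 and 52 in HSD-F1, and Pen, which encodes an importin alpha, had 16, 18 and 135 in ND and 11, 9 and 35 in HSD-F1. yl, the yolk protein receptor of the oocyte, had 4, 1 and 91 counts in ND and 2, 1 and 13 in HSD-F1. CG4009 had 138 counts in replicate 3, of which 126 were in ND 3, and 1 count over the other 4 libraries, a ratio of 262 with an exact 95% interval of 46.3 to 10433. CG11381, with 115 counts against 2, had a ratio of 109 (29.6 to 913). Both genes passed the filter on low counts only through replicate 3, and these intervals, like those given for other genes, describe counting error in these libraries and are no test of the contrast. Among 16 replication and cell cycle genes, 4 passed the thresholds upward and 0 downward, beside 1.67% and 1.54% of all genes tested. Their median was nevertheless -0.07, and it was 0.59 within ND and -0.23 within HSD-F1. CycA, for example, had log2 fold changes of 1.65 within ND and 0.49 within HSD-F1. CG16898 had the opposite order of the diets, with 28, 14 and 85 counts in ND and 61, 48 and 388 in HSD-F1.

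**Figure D3:**
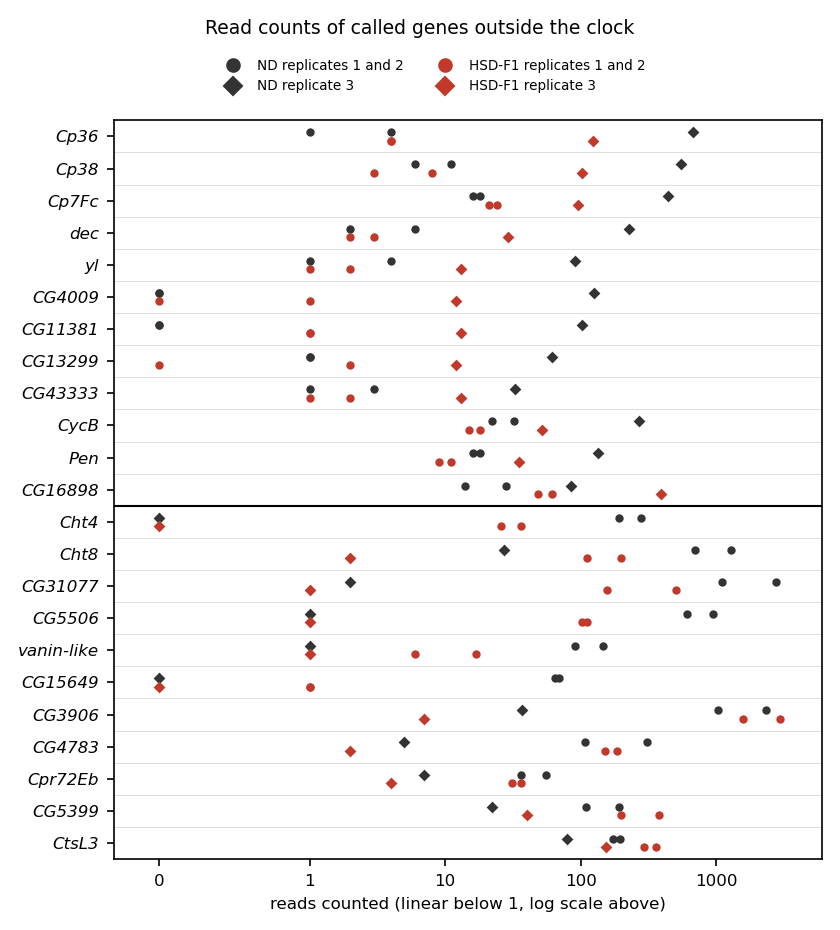
Reads counted in the 6 libraries on each called gene other than per, vri, Usp8, gol, Achl and Cyp309a1, on an axis that is linear below 1 and logarithmic above, with ND dark, HSD-F1 red and diamonds for replicate 3. In the upper block, genes called higher, the ND 3 diamond lies right of the HSD-F1 3 diamond except for CG16898 (85 against 388). In the lower block, genes called lower, both diamonds lie left of the circles of their diet.

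Among the genes with the largest negative differences, several had 2 counts or fewer in each replicate 3 library. Cht4, a chitinase gene on chromosome 2R (21065379 to 21067087), had 280 and 190 counts in ND 1 and 2, 36 and 26 in HSD-F1 1 and 2, and 0 in both replicate 3 libraries. It was at least 93.3-fold lower in replicate 3, taking 3 counts over the pair of libraries as the floor. Its neighbour Cht8 (21061646 to 21063212), also a chitinase gene, had 1273, 695 and 27 counts in ND and 197, 111 and 2 in HSD-F1, a log2 fold change of -5.39 (SE 0.55). Chitinases cut chitin, the polymer of the cuticle and of the lining of the midgut. CG31077 had 2733, 1097 and 2 counts in ND and 505, 157 and 1 in HSD-F1, 788-fold lower in replicate 3 (exact 95% interval 269 to 3822). CG5506, which overlaps CG7408 on the opposite strand, had 939, 604 and 1 counts in ND and 102, 112 and 1 in HSD-F1, 462-fold lower (128 to 3820). vanin-like, named for its likeness to pantetheinases, had 145, 91 and 1 counts in ND and 17, 6 and 1 in HSD-F1, 68.1-fold lower (18.7 to 566). CG15649, under 1 CPM on average, had 69, 64 and 0 counts in ND and 1, 1 and 0 in HSD-F1, at least 23.7-fold lower by the same floor. These 6 genes had more counts in ND 1 and 2 than in HSD-F1 1 and 2.

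For another 5 genes called lower, replicates 1 and 2 overlapped between the diets or were higher in HSD-F1. CG3906 had 2319, 1019 and 37 counts in ND and 1560, 2958 and 7 in HSD-F1, a log2 fold change of -6.51 (SE 0.66). CG4783 had 306, 108 and 5 counts in ND and 152, 184 and 2 in HSD-F1, and its overlapping neighbour on the opposite strand, Hs6st, had a log2 fold change of -0.02. CG5399 had 192, 109 and 22 counts in ND and 199, 377 and 40 in HSD-F1. Cpr72Eb, a cuticle protein gene, had 55, 36 and 7 counts in ND and 36, 31 and 4 in HSD-F1, a log2 fold change of -2.90. CtsL3, a cathepsin-like protease gene outside the 10 largest negative differences, had 196, 172 and 79 counts in ND and 290, 357 and 154 in HSD-F1, so that its replicate 3 level of HSD-F1 was near that of ND 1 and 2.

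A further 3 genes had negative differences of similar size and were not called. CG34220 had 14994, 1415 and 176 counts in ND and 16124, 38721 and 125 in HSD-F1. Muc68D, a mucin gene, had 3346, 366 and 54 counts in ND and 4860, 8329 and 12 in HSD-F1. CG34324 had 5986, 644 and 116 counts in ND and 7124, 19935 and 50 in HSD-F1. In all 3, the ND 2 library lay between the high libraries and replicate 3, and HSD-F1 2 was the highest. CG34220 lies within oys on the same strand, which had a log2 fold change of -0.03. Their log2 fold changes were -6.60, -6.72 and -6.24, with standard errors above 1.15. These genes were chosen after their values were seen.

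Of 35 listed digestive genes of the midgut, 16 had enough counts to be tested. All 16 had negative log2 fold changes, with a median of -0.92. Of these, 2 passed the thresholds downward, alphaTry and Jon65Aiii, beside 1.54% of all genes tested. Jon65Aiii, a serine protease gene, had 106, 30 and 12 counts in ND and 69, 16 and 4 in HSD-F1. The summed level of the list did not separate replicate 3, at 117, 91.4 and 111 CPM in ND, and 136, 82.4 and 81.1 CPM across HSD-F1, and the amylase genes Amy-d and Amy-p held most of it. Replicate 1 was the highest library of both diets. For the defining markers, betaTry had 114, 19 and 16 counts in ND and 96, 1 and 12 in HSD-F1, and Mal-A1 had 61 to 127 counts in every library. Of the 5 male reproductive genes tested, out of 21 listed, 0 passed the thresholds.

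Within each diet the 29 called genes had the same sign, and the sizes differed. The difference was larger in ND for 19 of the 29, and for 13 of the 17 genes called higher. These genes were called on the pooled difference, and the calls depended strongly on ND 3. The shared sign and the larger difference in ND thus follow in part from how the genes were picked, and nothing is read from these counts. Whether the replicate 3 difference depended on the diet was read from edgeR's interaction term. Each diet had 1 replicate 3 library, so the spread among such libraries within a diet was not measured. The split was chosen by expression of these same libraries, so the interaction p-values, also among called genes, are not independent of that choice. After Benjamini-Hochberg adjustment 0 of 12048 genes (0%) passed, with a lowest adjusted p of 0.0507, and 803 genes (6.67%) had an unadjusted p under 0.05. DESeq2 called 14 genes and limma-voom 0. The number called was 27, 15, 13 and 217 without ND 1, ND 2, HSD-F1 1 and HSD-F1 2, respectively. Of the 29 called genes, 9 had an unadjusted interaction p under 0.05, among them Cp36, Cp38, dec and Cp7Fc, which were higher in ND 3, and Achl. For Cp7Fc the log2 fold change was 4.67 within ND and 1.93 within HSD-F1 (adjusted p = 0.318, edgeR). For per, tim, Pdp1, cry, Usp8 and gol the 2 diets differed by less than 0.1 on the log2 scale. They differed more for the other core clock genes and Slob. The log2 fold changes within ND and HSD-F1 were 2.04 and 1.55 for vri, 0.655 and 0.177 for cwo and -0.383 and -0.635 for Clk. They were 0.003 and 0.259 for cyc and 0.643 and 0.951 for Slob.

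**Figure D4:**
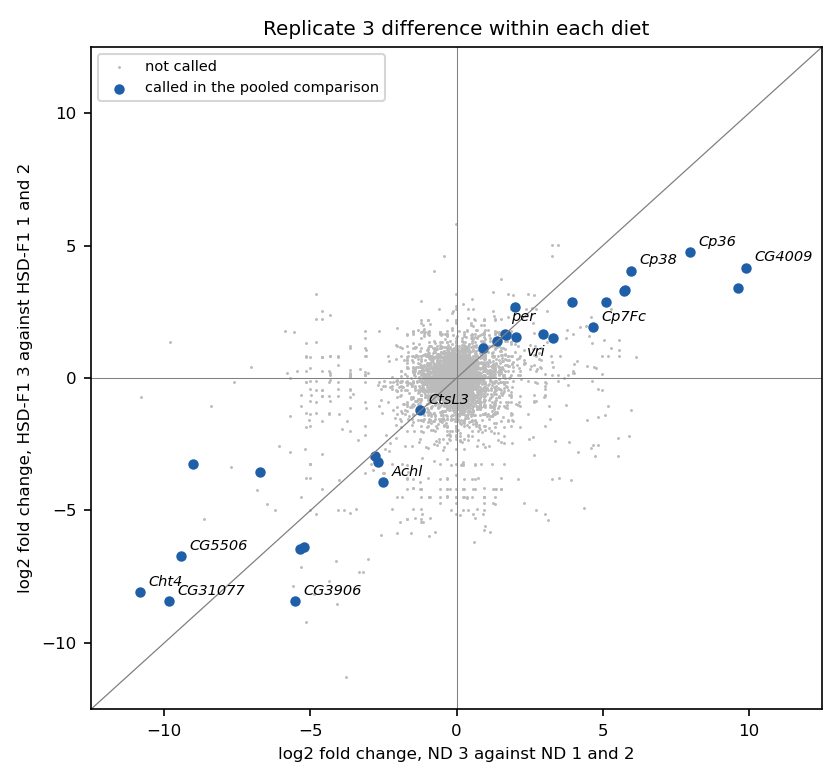
Log2 fold change of replicate 3 against replicates 1 and 2 within ND (horizontal) and within HSD-F1 (vertical) for the 12048 genes tested, with the 29 called genes in blue and the line of equal change. The blue points have the same sign on both axes, per (1.65 and 1.67) on the line, Cp7Fc (4.67 and 1.93) below it and Achl (-2.51 and -3.93) below it on the negative side.

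Several antimicrobial peptide genes, which the fat body and other tissues express on infection or stress, were far higher in ND 3 than in ND 1 and 2. DptA, a diptericin gene, reached 29.9, 19.2 and 632 CPM in ND, and 1024, 748 and 1183 CPM across HSD-F1. ND 3 thus lay near the HSD-F1 libraries and far above ND 1 and 2. The mean of HSD-F1 was 36.1 times that of ND in replicates 1 and 2 and 1.87 times in replicate 3. DptB reached 138, 183 and 1003 CPM in ND, and 826, 1090 and 1731 CPM across HSD-F1, with ratios of 5.97 and 1.73. Drosocin (Dro) reached 52.8, 102 and 391 CPM in ND, and 1510, 1457 and 2197 CPM across HSD-F1, with ratios of 19.2 and 5.62. AttA had ratios of 10.3 and 2.30, and AttC 5.68 and 2.25. IBIN, a short gene induced by infection, reached 1.04, 0.646 and 18.8 CPM in ND, and 69.8, 73.8 and 97.3 CPM across HSD-F1. It had the lowest interaction p of all genes (adjusted p = 0.0507, edgeR), followed by DptA (adjusted p = 0.188, edgeR). For these 6 genes, which were chosen after their values were seen, the ratio between diets was smaller in replicate 3, and the interaction did not pass the adjusted threshold for any of them. Over the 26 listed antimicrobial peptide and Bomanin genes the ratio was smaller in replicate 3 for 11 and larger for 15. It was larger for BomS3, at 1.35 in replicates 1 and 2 and 2.58 in replicate 3, and for CecC, at 1.25 and 2.45.

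Of the 26 antimicrobial peptide and Bomanin genes, 25 had positive log2 fold changes in replicate 3, with a median of 0.49 (0.33 within ND and 0.60 within HSD-F1), and 10 passed the study's thresholds upward, 0 downward and 0 were called. Replicate 3 was the highest library of both diets for 12 of the 26. The shares over all genes tested were 1.67% upward, 1.54% downward, 0.241% called and 12.6% highest in both diets. The list summed to 1931, 3079 and 5462 CPM in ND and to 8377, 8703 and 13327 CPM in HSD-F1. The groups of diets did not overlap in this sum, and replicate 3 was the highest of each. The Bomanin gene BomS3 did not follow, at 551, 960 and 800 CPM in ND, and 577, 1460 and 2062 CPM across HSD-F1, nor did Drs, at 81.7, 163 and 157 CPM in ND, and 531, 210 and 414 CPM across HSD-F1. Turandot genes, secreted peptides of the stress response, were lower in all 5 tested, with a median of -0.55, and 1 passed the thresholds downward. That gene was TotC, at 184, 165 and 85.9 CPM in ND, and 359, 324 and 283 CPM across HSD-F1.

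**Figure D5:**
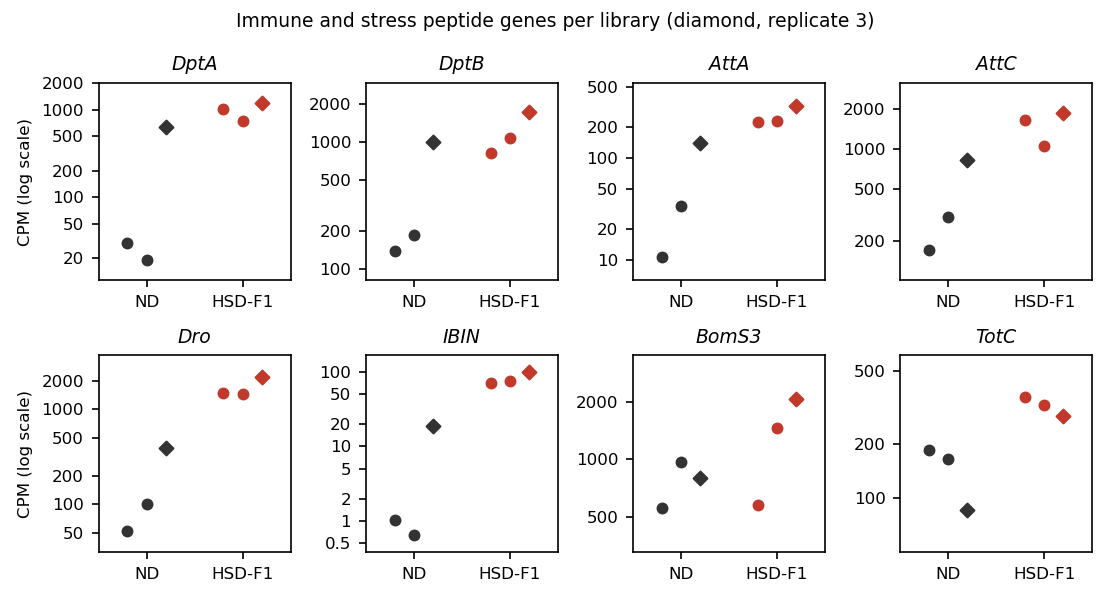
Scaled counts (CPM, log scale) of 5 antimicrobial peptide genes, IBIN, BomS3 and TotC in each library, with ND dark, HSD-F1 red, replicates 1, 2 and 3 from left to right and diamonds for replicate 3. For DptA the ND 3 diamond (632 CPM) lies near the HSD-F1 libraries (748 to 1183 CPM), and for TotC both diamonds are the lowest of their diet.

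Of the abundant head genes outside these groups, those given here differed less, apart from CG17005. The following, apart from Cyp309a1, were chosen after their values were seen, and all passed the study's thresholds. CG17005 reached 12.2, 52.0 and 115 CPM in ND, and 9.18, 47.0 and 93.1 CPM across HSD-F1, a log2 fold change of 1.78 (SE 0.60). Arc1, a capsid-like protein gene that responds to neuronal activity, reached 111, 150 and 350 CPM in ND, and 206, 242 and 306 CPM across HSD-F1. tobi, a glucosidase gene regulated by insulin and glucagon-like signals, reached 354, 156 and 634 CPM in ND, and 237, 174 and 300 CPM across HSD-F1. Cyp309a1, a cytochrome P450 gene and a called member, reached 26.6, 36.6 and 59.7 CPM in ND, and 40.2, 41.1 and 90.0 CPM across HSD-F1, a log2 fold change of 1.03 (SE 0.14). Gclm, which encodes a subunit of the enzyme that starts glutathione synthesis, had a log2 fold change of 0.77. For Arc1, Cyp309a1 and Gclm both replicate 3 libraries were above the 4 others.

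Several enzyme genes were about 1.5-fold lower in replicate 3. AGBE, the glycogen branching enzyme, reached 353, 284 and 184 CPM in ND, and 364, 309 and 222 CPM across HSD-F1, a log2 fold change of -0.69. pug, an enzyme of folate metabolism, reached 596, 558 and 399 CPM in ND, and 568, 576 and 326 CPM across HSD-F1, and Gart, an enzyme of purine synthesis, had a log2 fold change of -0.61. In all 3, both replicate 3 libraries were below the 4 others. Taldo, the transaldolase, and Pepck2 had log2 fold changes of -0.65 and -0.64. The pigment genes tan (t) and vermilion (v) had log2 fold changes of -0.59 and -0.79. Among 68 cuticle protein genes, 3 passed the thresholds upward and 5 downward, and 1 was called (Cpr72Eb), beside 1.67%, 1.54% and 0.241% of all genes tested. The abundant member Cpr72Ec reached 530, 506 and 225 CPM in ND, and 446, 390 and 269 CPM across HSD-F1.

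Lists of genes that mark head tissues had few or no members past the thresholds. Nothing is read from these counts, since lists this short hold few such genes at the shares over all genes. Over all genes tested, 1.67% passed upward and 1.54% downward. Of the genes tested, 0 of 19 neuronal, 0 of 8 glial, 0 of 20 phototransduction, 0 of 17 muscle, 0 of 10 head fat body and 0 of 26 neuropeptide genes passed the study's thresholds in either direction. Their median log2 fold changes were -0.09, -0.09, 0.14, -0.17, 0.01 and 0.15. In the same order, replicate 3 was the highest library of both diets for 0, 0, 9, 0, 1 and 6 of these genes. It was the lowest of both for 4, 2, 1, 5, 1 and 0. The shares over all genes tested were 12.6% highest and 11.4% lowest in both diets. Of 24 mitochondrially encoded genes, 17 were tested and 16 had negative values, with a median of -0.23, and trnL2 passed the thresholds downward. Ribosomal protein genes had positive values for 74 of 87, with a median of 0.14, but the median was -0.15 within ND and 0.40 within HSD-F1. Heat shock genes (15 tested, median 0.002), histone genes (27, 0.06), odorant-binding protein genes (37, 0.07) and glutathione S-transferase genes (33, -0.01) had 1, 0, 0 and 1 members past the thresholds, respectively, which were Hsp70Aa upward and GstD6 downward. Of 80 cytochrome P450 genes, 3 passed upward and 2 downward, with a median of 0.05. Of 11 fasting and insulin response genes, tobi passed upward and Pepck2 downward, with a median of 0.08. Activity-induced genes (7 tested, median -0.06) and hormone response genes (10, -0.08) had 0 members past the thresholds, and sweet gustatory receptor genes (5, 0.25) had 1, Gr61a, upward. Of 8 genes of PRC2, the complex that writes H3K27me3, 0 passed, with log2 fold changes from -0.20 to 0.08.

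The comparison of the diets was then read with replicate 3 as a term. Since this term was chosen by the expression of the same libraries, the p-values with it depend on that choice and are not independent tests of diet. With edgeR and the study's thresholds, 266 genes (2.21%) passed, 148 of them upregulated and 118 downregulated in HSD-F1, against 218 (1.81%), 137 and 81, with diet as the only term. Of these, 204 passed in both fits, 62 only with the term and 14 only without it. After adjustment, 14 genes (0.116%) passed with the term, 12 of them upregulated, and 8 (0.0664%) without it, and the 8 were among the 14. Without the replicate 3 libraries of both diets, which left 2 libraries against 2, 239 genes passed the study's thresholds and 18 the adjusted one. Without HSD-F1 2 the adjusted count with the term was 9, and leaving out any other library gave 14 to 20. The 6 genes that passed only with the term were Dro, TotC, BomT1, CtsL3, CG5506 and CG15649. The last 3 were also called between replicate 3 and the other replicates. CG5506 had a diet log2 fold change of -2.67 (SE 0.26, adjusted p = 0.00747, edgeR), and CtsL3 of 0.97 (SE 0.13, adjusted p = 0.0440, edgeR). For CG15649, with 133 counts in ND and 2 in HSD-F1, the adjusted p was 0.00767 (edgeR). For Dro it was 0.0127 (edgeR) with a log2 fold change of 3.68. In each replicate 3 library CG15649 had 0 counts and CG5506 had 1, so the diet differences of these genes rest on replicates 1 and 2. With diet as the only term, the adjusted p (edgeR) was 0.911 for CG5506, CtsL3 and CG15649 and 0.638 for Dro. Of the 29 genes called for replicate 3, 18 passed the study's thresholds for diet. Both comparisons rest on the same 6 libraries and the same residual spread.

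The homeobox gene cad, which was examined elsewhere in the study, was also highest in replicate 3. It had 8, 1 and 24 counts in ND and 1, 0 and 4 in HSD-F1, a log2 fold change of 2.41 (SE 0.74) for replicate 3, which passed the study's thresholds and was not called. In the diet comparison its log2 fold change was -2.60 (SE 0.83) with the term (unadjusted p = 0.0128, adjusted p = 0.845, edgeR) and -2.54 without it (unadjusted p = 0.0547, adjusted p = 0.911, edgeR). upd2, a leptin-like cytokine gene, had 10, 7 and 13 counts in ND and 0, 1 and 3 in HSD-F1. Its diet comparison did not pass after adjustment in either fit. It had an unadjusted p of 0.00291 and an adjusted p of 0.5235 with the term (edgeR). Without the term these were 0.00457 and 0.911 (edgeR). GATAe, a transcription factor of the midgut, had 10, 8 and 1 counts in ND and 5, 22 and 0 in HSD-F1, 23.7-fold lower in replicate 3 (exact 95% interval 4.04 to 956), and its diet comparison had an adjusted p of 0.950 with the term.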

How the data were processed

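The authors deposited 1 table of raw read counts per gene for each of the 6 head libraries, in whole numbers. Uniquely mapped reads were kept, per the study's methods. The submitters' processing notes name HISAT2 2.0.4, Bowtie2 2.2.5, RSEM 1.2.12 and DESeq2 1.4.5. The counting program and its use of strand are not given in the sources used here, so reads of overlapping genes cannot be told apart. The labels call the samples biological replicates, and p-values measure the spread between these pooled samples. Depth was 20266352 to 26190694 counts per library.

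Genes with at least 10 counts in total were fitted with edgeR 4.0.16 (R 4.3.3), quasi-likelihood test, trimmed mean of M-values scaling, and terms for replicate 3 and for diet. P-values were adjusted by Benjamini-Hochberg over all 12048 genes. DESeq2 1.42.0 and limma-voom (limma 3.58.1) were alternatives, besides other filters, scaling, a replicate block and leaving out each library. The procedure was also run on simulated data, with changes of a fixed size in well-counted genes, equal in both diets. Changes at low counts or unequal between the diets were not simulated. Log2 CPM for the components used a prior count of 2. Count ratios have exact 95% intervals, and bounds against 0 take 3 counts over the group as the floor. Both cover counting error only.

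The members and all gene lists were chosen with earlier results of these data known. Named genes were the 8 core clock genes, cad, up to 10 called genes of largest difference in each direction with a mean of at least 1 CPM and replicate 3 beyond both others in both diets, and up to 3 called members of each list with the highest mean CPM. All other genes named were chosen after their values were seen. Gene names and Release 6 coordinates are those of RefSeq, which matched 17504 of 17545 genes, of which 17476 had the same start and end in the deposited tables.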

Additional observations from a re-analysis of the deposited data

Results flagged for a closer look

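In 16 of 30 gene lists the median log2 difference between replicate 3 and the other replicates had opposite signs in the 2 diets. The 9 given here are those in which, in addition, the list's median level in replicate 3 lay beyond both other libraries of its diet, on opposite sides in ND and HSD-F1. Whether these differences depended on the diet was not tested for any list, and several are close to 0. Replication and cell cycle genes had a median of 0.588 within ND and -0.232 within HSD-F1. Cytoplasmic ribosomal protein genes had -0.153 within ND and 0.404 within HSD-F1, and neuropeptide genes -0.044 and 0.348. Male reproductive genes, of which 5 were tested, had 0.103 and -0.644. Heat shock genes had -0.243 within ND and 0.079 within HSD-F1. For PRC2 genes the values were 0.082 and -0.242, for glutathione S-transferase genes -0.102 and 0.081, for odorant-binding protein genes -0.049 and 0.151, and for clock kinases and turnover factors 0.065 and -0.031.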

How the results depend on the processing

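The 29 calls between replicate 3 and the other replicates became 8 with at least 10 counts in every library (11 of the 29 were then tested), 87 with at least 1 count, 109 with DESeq2, 10 with limma-voom, 9 with no diet term, 2 within HSD-F1 and 29 within ND. All 29 stayed called with DESeq2 and with median-of-ratios size factors, and 16 within ND. Leaving out 1 library gave 1 to 47 calls. The 387 genes past the study's thresholds became 176 with at least 10 counts in every library and 252 with DESeq2, and 325 to 497 without 1 library. The 0 interaction calls became 1 with median-of-ratios size factors, 1 with at least 10 counts in every library, 7 with at least 1 count, 14 with DESeq2, and 13 to 217 without 1 library. The interaction could not be fitted without ND 3 or HSD-F1 3, and where a diet kept 1 library of replicates 1 and 2, that library was assumed to vary like the others. The 266 diet genes became 132 with at least 10 counts in every library and 136 with DESeq2, and 242 to 305 without 1 library. The 14 adjusted diet calls became 45 with at least 1 count, 46 with DESeq2, 8 with limma-voom and 8 with at least 10 counts in every library.

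The labels do not say that the replicate number pairs the samples, and it was not treated so. The correlation of same-numbered deviations from the diet means was 0.245, 0.00838 and 0.279. ND 1 and ND 3 correlated best with the HSD-F1 library of their own number, and ND 2 with HSD-F1 1 (0.0375). Deviations within a diet cancel out, so these correlations depend on each other and do not decide the pairing. A replicate block gave 60 replicate 3 calls, all 29 among them, 404 genes past the study's thresholds, 61 interaction calls, 264 diet genes and 38 adjusted diet calls.

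Signs changed for nanos, at -0.42 without ND 3 and within HSD-F1 (-0.42 to 4.84 over the libraries left out), for Cp7Fa, at -0.20 without ND 3 and within HSD-F1 (-0.20 to 0.36), for osk, at -1.04 within HSD-F1, and for the diet difference of GATAe, at -0.68 without HSD-F1 2 (-0.68 to 1.05). The causes were not tested. Depth limits the genes with under 10 counts in a group.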
